A study of Mus musculus with 16 samples.

Results

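The genes described here are the histone genes of the mouse as they were measured in foam cells. They were taken from the deposited expression table by symbol: every gene of the numbered *Hist* clusters, and the separately named variant genes of the *H2af*, *H3f3a*, *H3f3b* and *H1f* series. This rule chose 86 of 48432 genes, of which 70 belong to the replication-dependent class and 16 to the variant class. It left out 1 further entry, the pseudogene *H2af-ps*, and kept *Hist3h2bb-ps* because its symbol falls in a numbered cluster. The classes follow the symbols alone. The replication-dependent class also holds *Hist1h2aj* and *Hist1h2al*, which the GENCODE M21 annotation types as pseudogenes.

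The study asked what LD-associated hydrolase (LDAH), a protein of lipid droplets, does in macrophage foam cells. RNA was sequenced from peritoneal macrophages (PM) of C57BL/6J mice, in 16 samples that fall into 4 groups of 4. LDAH-Tg mice carry a hemizygous *Ldah* transgene driven by the myeloid *Csf1r* promoter and its enhancer, and their founders, made in a hybrid strain, were bred back to C57BL/6. LDAH-KO mice carry a global *Ldah* allele in which homologous recombination replaced some of the exons, and not the whole gene. Each genotype had its own group of WT control mice. In all 4 groups the PM were collected 5 days after an injection of 3% thioglycolate, which draws macrophages into the peritoneum. They were then held for 48 h with oxidized LDL (oxLDL) at 50 μg/ml in 1% serum, which loads them with lipid, and no group without oxLDL was used here. The genotype label of the LDAH-Tg WT control also names ApoE, and whether the other groups share that background is not given in the sources used here.

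Values are the authors' mean transcripts per 1000000 (TPM) of each group, a scale that corrects for gene length, so that levels of different genes can be set side by side. No value of a single mouse was used, because the table holds means alone. The differences below therefore have no replicate check, no error and no test, and read depth is unknown. *Ldah* averaged 124 TPM in LDAH-Tg and 28.5 TPM in the LDAH-Tg WT control, and 27.9 TPM in LDAH-KO and 44.5 TPM in the LDAH-KO WT control. The level in LDAH-KO was thus lower than in its control but about that of the LDAH-Tg WT control. For homozygous mice the paper reports a complete knockout by PCR and western blotting. A value for the whole gene does not say which exons were read, so these means neither show nor contradict that loss. LDAH-KO stands below for the groups as labelled. Of 9 macrophage markers, 8 were above 0 in every group, while *Lyz2* was listed at 0 in 3 of the 4 groups and at 10105 TPM in LDAH-Tg. A listed 0 can therefore be a failed estimate, and for no histone gene is a 0 read here as absence.

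Histones are the proteins around which DNA is wound, with H2A, H2B, H3 and H4 forming the nucleosome core and H1 binding the linker between cores. Replication-dependent genes lie in clusters, are made mainly in S phase, and give mRNAs that normally end just after a stem loop bound by the protein SLBP, without a poly(A) tail. Variant genes such as those of H3.3, H2A.Z and macroH2A lie outside the clusters, are made throughout the cell cycle, and give ordinary polyadenylated mRNAs. Macrophages elicited with thioglycolate divide little in culture. The libraries were enriched for poly(A), a step that captures poorly an mRNA that ends at the stem loop.

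The stem loop was looked for in the transcript models of GENCODE M21, which uses the genome build of the files (GRCm38). A stem loop was found in 44 of the 84 members that are in that release. Of these, 43 were replication-dependent, and the other was the variant *H2afx*. The members shown are those whose level or position the results turn on. Each line runs 5′ to 3′, with the 16 bases of the stem and loop in capitals and up to 5 flanking bases on each side in lower case.

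Hist1h1c: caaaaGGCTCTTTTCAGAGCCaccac
Hist3h2a: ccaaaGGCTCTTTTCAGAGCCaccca
Hist1h4i: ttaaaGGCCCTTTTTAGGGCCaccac
Hist1h4h: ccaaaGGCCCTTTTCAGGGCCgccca
Hist1h2ac: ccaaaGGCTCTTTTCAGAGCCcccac
H2afx: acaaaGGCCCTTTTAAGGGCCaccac

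The stem loop of *Hist1h1c* lies at chr13:23739512-23739527 on the plus strand, and that of *Hist3h2a* at chr11:58955172-58955187 on the plus strand. That of *Hist1h4i* lies at chr13:22040966-22040981 on the minus strand, and that of *Hist1h4h* at chr13:23531458-23531473 on the plus strand. That of *Hist1h2ac* lies at chr13:23683477-23683492 on the minus strand, and that of *H2afx* at chr9:44335240-44335255 on the plus strand. All are in single-exon genes. The 16-base core of *Hist1h1c* was the most common, shared by 23 members, and that of *Hist1h4h* was shared by 7. The abundant and the scarce genes shown use the same letters: *Hist1h2ac*, which stayed below 0.24 TPM, has the core of *Hist1h1c*.

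Variant genes supplied most histone RNA in these libraries. Summed over the 16 variant genes, the level was 1293 TPM in LDAH-Tg and 1414 TPM in the LDAH-Tg WT control. The sum was 1958 TPM in LDAH-KO and 1934 TPM in the LDAH-KO WT control. The 70 replication-dependent genes together had 358 TPM in LDAH-Tg and 344 TPM in the LDAH-Tg WT control, with 360.0 TPM in LDAH-KO and 347 TPM in the LDAH-KO WT control. Replication-dependent genes thus made up 15.2% to 21.7% of the histone total. Their sum lay within a narrow range over the 4 groups, while the variant sum was higher in both groups of the LDAH-KO experiment than in both groups of the LDAH-Tg experiment.

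Nearly all of the replication-dependent signal came from a few genes. *Hist1h2bc*, an H2B gene with 2 exons (chr13:23684199-23692908, plus strand), had 235.7 TPM in LDAH-Tg, 223 TPM in the LDAH-Tg WT control, 228 TPM in LDAH-KO and 224 TPM in the LDAH-KO WT control. This 1 gene held 63.4% to 65.8% of the replication-dependent total and over 92% of all H2B signal in every group. Next came the linker histone gene *Hist1h1c*, with 40.6 TPM in LDAH-Tg, 47.2 TPM in the LDAH-Tg WT control, 66.7 TPM in LDAH-KO and 63.5 TPM in the LDAH-KO WT control. Together with *Hist3h2a* (an H2A gene) and *Hist2h2be* (an H2B gene), they held 91.0% to 92.6% of the class total.

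*Hist3h2a* had 34.4 TPM in LDAH-Tg, 31.8 TPM in the LDAH-Tg WT control, 23.7 TPM in LDAH-KO and 21.7 TPM in the LDAH-KO WT control. *Hist2h2be* had 15.4, 13.6, 12.5 and 11.8 TPM in the same order of groups. *Hist1h4i*, the leading H4 gene, had 10.2 TPM in LDAH-Tg, 8.13 TPM in the LDAH-Tg WT control, 10.0 TPM in LDAH-KO and 9.0 TPM in the LDAH-KO WT control. All 3 were highest in LDAH-Tg, and the order of the abundant replication-dependent genes was the same in every group.

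Highest levels between 1 and 4 TPM were those of *Hist2h3c2* and *Hist2h3c1*, which encode H3, *Hist1h4h* (H4), *Hist1h2bg* (H2B), *Hist1h2ae* (H2A), and the H4 genes *Hist1h4d* and *Hist1h4c*, the last pair reaching 1 TPM only in the LDAH-Tg group. The other 58 replication-dependent genes stayed below 1 TPM in all 4 groups. Of these, 8 were listed at 0 in every group, and the 50 others had highest levels of 0.014 to 0.78 TPM with a median of 0.20 TPM. Together with the 7 variant genes that also stayed below 1 TPM, these 58 genes summed to 7.96 TPM in LDAH-Tg and 8.59 TPM in the LDAH-Tg WT control. The same sum was 6.5 TPM in LDAH-KO and 7.30 TPM in the LDAH-KO WT control.

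Of the 16 variant genes, 9 reached 1 TPM and 8 reached 10 TPM. The rest were *H1fx*, a linker histone at 0.26 to 0.78 TPM, the pseudogene *H2afy3*, and genes of germ cells: *H1foo* of the oocyte, *H1fnt* of the testis and the *H2afb* genes. Of these, 4 were listed at 0 in all 4 groups.

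**Figure D1:**
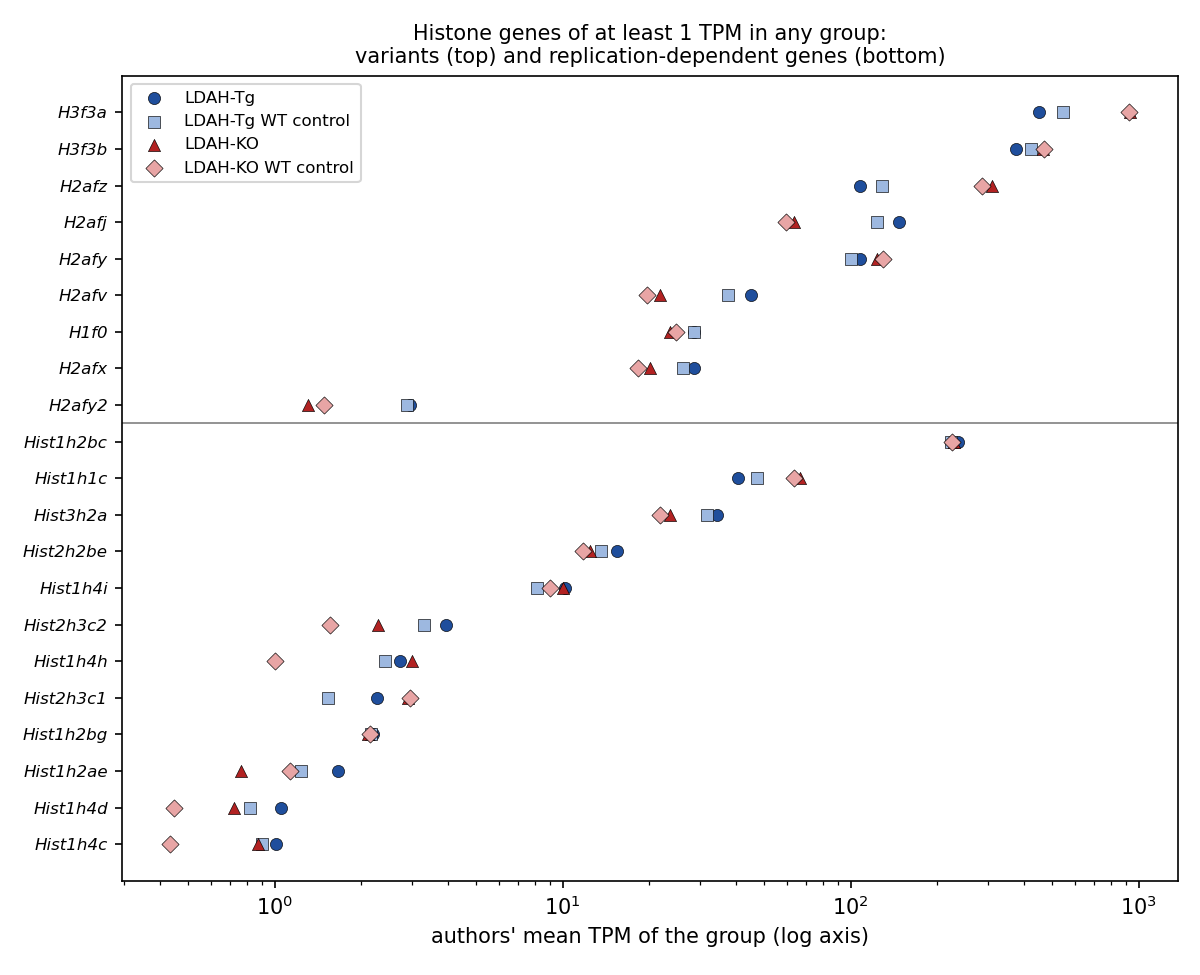
The authors' mean TPM (log axis) of the 21 histone genes that reached 1 TPM in any group, with 1 symbol for each of the 4 groups and the variant genes above the line. *H3f3a* and *H3f3b* lie highest, *Hist1h2bc* is the only replication-dependent gene above 100 TPM, and the 2 groups of an experiment mostly lie closer to each other than to the other experiment.

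Within families, 1 or a few genes held most of the signal. *H3f3a* and *H3f3b*, which encode the same H3.3 protein, made up 99.1% to 99.6% of all H3 signal. *H3f3a* had 449 TPM in LDAH-Tg, 546 TPM in the LDAH-Tg WT control, 929 TPM in LDAH-KO and 925 TPM in the LDAH-KO WT control. *H3f3b* had 376 TPM in LDAH-Tg, 421 TPM in the LDAH-Tg WT control, 465 TPM in LDAH-KO and 471 TPM in the LDAH-KO WT control. The division of the pair differed between experiments, with *H3f3a* holding 54.4% of it in LDAH-Tg and 56.4% in the LDAH-Tg WT control, against 66.6% in LDAH-KO and 66.3% in the LDAH-KO WT control. Many genes other than histones also differed between the WT controls of the experiments, as given below.

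The H2A family was spread over more genes. *H2afz*, which encodes the H2A.Z found beside promoters, had 108 TPM in LDAH-Tg, 129 TPM in the LDAH-Tg WT control, 310 TPM in LDAH-KO and 285 TPM in the LDAH-KO WT control. Its paralogue *H2afv* ran the other way, with 45.0 TPM in LDAH-Tg, 37.4 TPM in the LDAH-Tg WT control, 21.7 TPM in LDAH-KO and 19.6 TPM in the LDAH-KO WT control. The ratio of *H2afz* to *H2afv* was accordingly 2.4 in LDAH-Tg and 3.44 in the LDAH-Tg WT control, but 14.3 in LDAH-KO and 14.5 in the LDAH-KO WT control. *H2afj*, a variant close to the replication-dependent H2A, had 147 TPM in LDAH-Tg, 123 TPM in the LDAH-Tg WT control, 63.4 TPM in LDAH-KO and 59.6 TPM in the LDAH-KO WT control.

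The macroH2A gene *H2afy* was nearly level, with 107 TPM in LDAH-Tg, 99.98 TPM in the LDAH-Tg WT control, 123 TPM in LDAH-KO and 130 TPM in the LDAH-KO WT control. Its paralogue *H2afy2* had 2.94, 2.89, 1.30 and 1.49 TPM in these groups. *H2afx*, whose protein is phosphorylated at DNA breaks, had 28.5 TPM in LDAH-Tg, 26.1 TPM in the LDAH-Tg WT control, 20.1 TPM in LDAH-KO and 18.3 TPM in the LDAH-KO WT control. In the H1 family the replacement linker gene *H1f0* had 28.5 TPM in LDAH-Tg, 28.6 TPM in the LDAH-Tg WT control, 23.6 TPM in LDAH-KO and 24.7 TPM in the LDAH-KO WT control. With *Hist1h1c* it made up over 98% of H1 signal in every group.

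**Figure D2:**
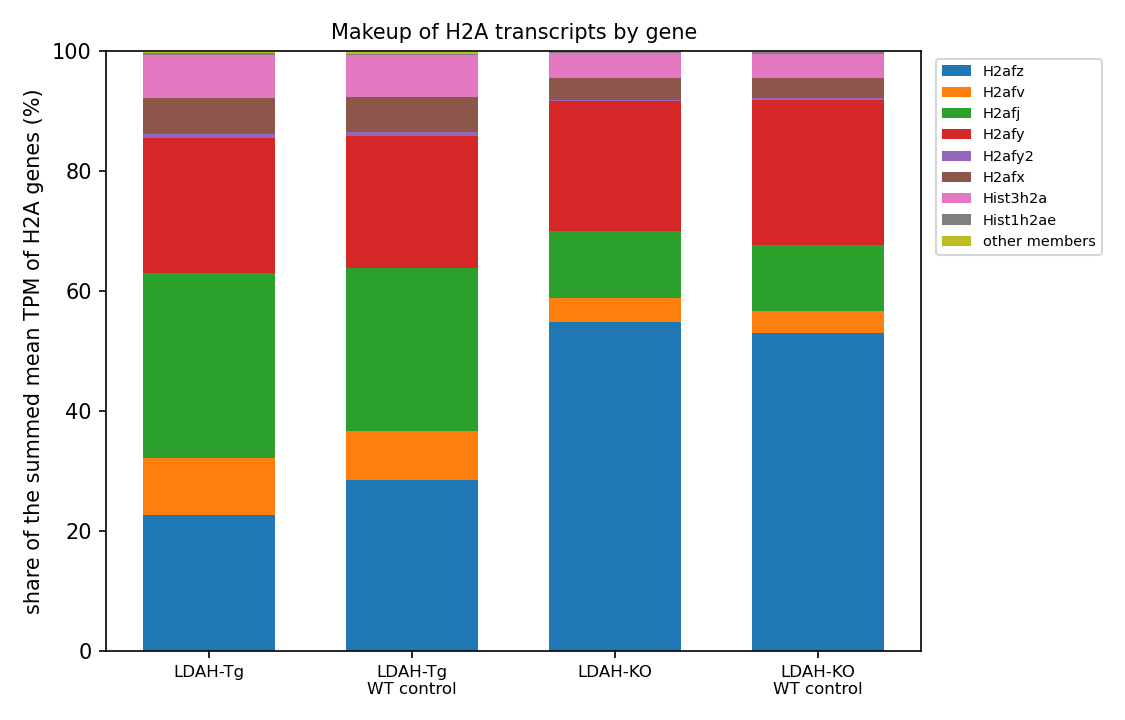
Share of each gene in the summed mean TPM of all H2A genes, variant and replication-dependent, by group. *H2afz* held 22.7% in LDAH-Tg and 28.4% in the LDAH-Tg WT control, against 54.9% in LDAH-KO and 53.0% in the LDAH-KO WT control, while *H2afj* held 30.9%, 27.2%, 11.2% and 11.1% in that order.

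The replication-dependent genes that were seen in these poly(A)-enriched libraries were mostly those whose GENCODE M21 model runs on past the stem loop. The classes used for this description, divided at 100 bases after the stem loop and at a model length of 1000 bases, were set after the values were seen. In 22 genes the model continued for 100 bases or more, and 9 of them reached 1 TPM. In 21 genes it continued for less, and only *Hist1h4h* reached 1 TPM, with 46 bases after its stem loop. No stem loop was found in 21 models of up to 1000 bases, none of which reached 1 TPM. Many of these models stop at or near the coding end, so that a stem loop beyond it could not be found. Nor was 1 found in 4 longer models, of which *Hist1h2bc* and *Hist2h2be* reached that level. The loci that the authors list with the TPM values are shorter than the M21 models for some genes. That of *Hist1h4d* ends at chr13:23581990, and its stem loop ends at 23581965. Those of *Hist1h4c*, *Hist1h2bg* and *Hist1h2ae* also end less than 100 bases after the stem loop. On the listed loci these genes fall in the class with short ends.

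In the M21 models the distance was 840 bases in *Hist1h1c*, 1643 bases in *Hist3h2a*, 330 bases in *Hist1h4i* and 1167 bases in *Hist2h3c1*. It was 377 bases in *Hist2h3c2*, 155 bases in *Hist1h2bg* and 151 bases in *Hist1h2ae*. A long model did not go with a high level in every case: 13 of the 22 genes in that class stayed below 1 TPM, and the class median of the highest level was 0.58 TPM, against 0.20 TPM for the class with short ends. Annotated ends rest on transcripts seen in other samples, and where these mRNAs ended in the PM was not tested.

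**Figure D3:**
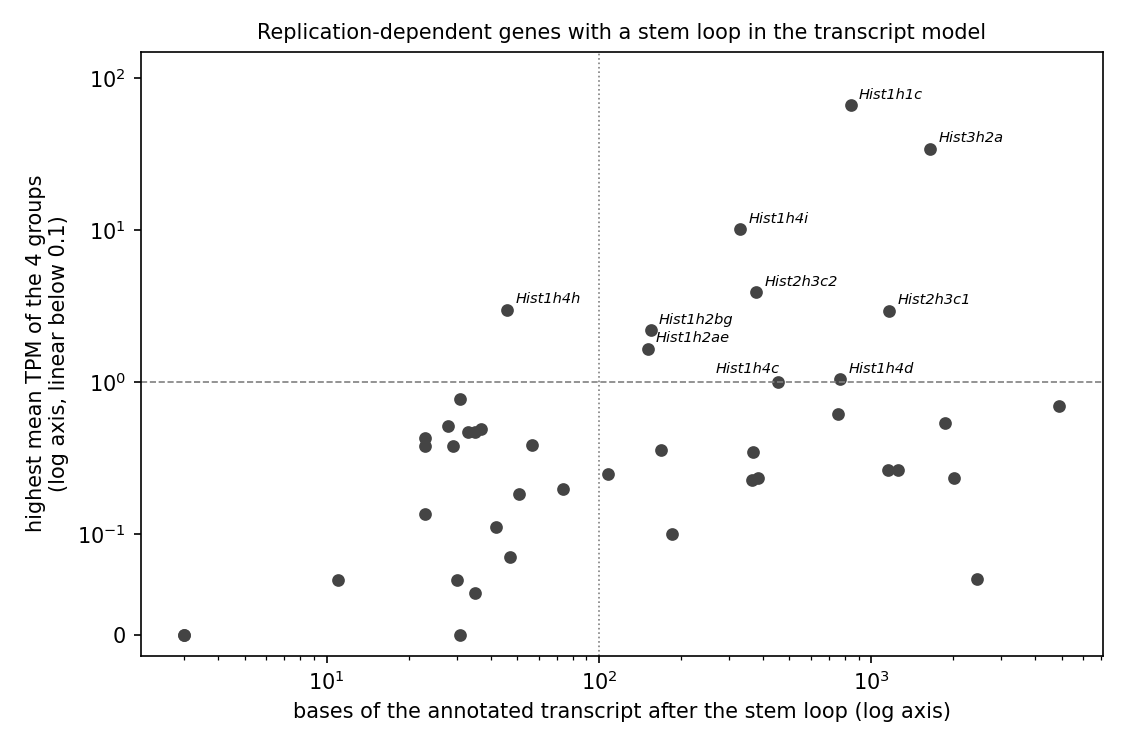
Highest of the 4 group means in TPM (vertical axis, log, linear below 0.1) against the bases of the GENCODE M21 model after the stem loop (log axis). Each point is 1 replication-dependent gene with a stem loop. Of the 10 genes at or above 1 TPM (dashed line), 9 lie right of the dotted line at 100 bases and *Hist1h4h* lies left of it. The loci listed by the authors are shorter for some of these genes.

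Many H2A and H2B genes stand head to head and start from a shared stretch of DNA. With starts at most 500 bases apart, a limit also set after the values were seen, 13 such pairs were found, at gaps of 172 to 305 bases. In 9 pairs both genes stayed below 1 TPM. In 3 pairs 1 gene passed 10 TPM while its partner stayed below 0.4 TPM in every group. The widest split was *Hist1h2bc*, with at least 223 TPM in every group, against *Hist1h2ac*, its H2A partner 250 bases away. *Hist1h2ac* had 0.23 TPM in LDAH-Tg, 0.19 TPM in the LDAH-Tg WT control, 0.046 TPM in LDAH-KO and 0.23 TPM in the LDAH-KO WT control. *Hist2h2be* and *Hist2h2ac*, 238 bases apart, and *Hist3h2a* and *Hist3h2bb-ps*, 172 bases apart, were split in the same way. Only *Hist1h2ae* and *Hist1h2bg*, 175 bases apart, both reached 1 TPM. The listed locus of *Hist1h2ac*, chr13:23683448-23683924 on the minus strand, ends close after its stem loop at 23683477-23683492. Its M21 model instead runs on for 2010 bases after the stem loop. No stem loop was found in *Hist1h2bc*. In the other split pairs, a stem loop was found in the scarce *Hist2h2ac* and not in *Hist2h2be*. It was found in the abundant *Hist3h2a* and not in *Hist3h2bb-ps*. Poly(A) enrichment captures poorly an mRNA that ends at the stem loop, and its part in these splits was not tested.

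**Figure D4:**
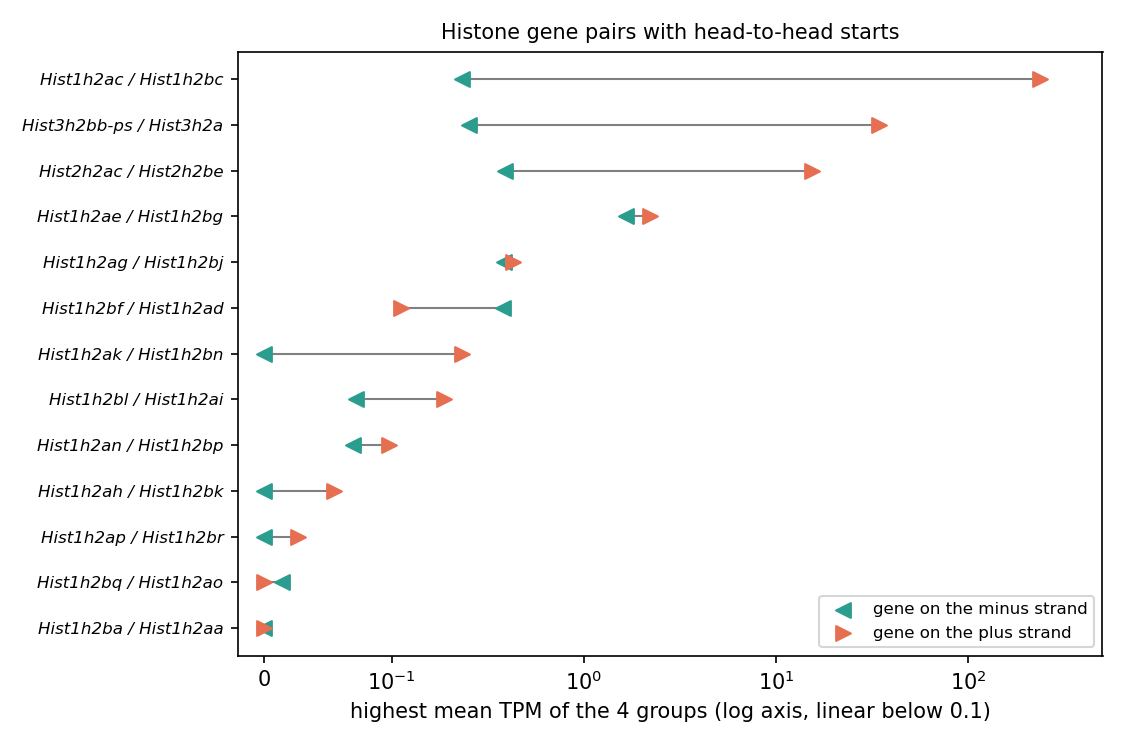
Highest of the 4 group means in TPM (log axis, linear below 0.1) for both genes of the 13 head-to-head pairs, joined by a line. The 3 upper pairs split by more than 10-fold, with the abundant gene on the plus strand at 235.7, 34.4 and 15.4 TPM, and the pair *Hist1h2ae* and *Hist1h2bg* lies together at 1.66 and 2.2 TPM.

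The 300-base window of *Hist1h2ac* in RefSeq (build GRCm38.p6, chr13:23683910-23684209, minus strand) spans the shared stretch of the widest split and ends beyond the start of *Hist1h2bc*. It is shown because both genes lie on it. Capitals mark 3 words searched for on both strands: CCAAT, the box bound by NF-Y (ATTGG on the other strand), TATAAA, the TATA box, and ATTTGCAT, the octamer bound by OCT1, which reads ATGCAAAT on the other strand.

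Hist1h2ac: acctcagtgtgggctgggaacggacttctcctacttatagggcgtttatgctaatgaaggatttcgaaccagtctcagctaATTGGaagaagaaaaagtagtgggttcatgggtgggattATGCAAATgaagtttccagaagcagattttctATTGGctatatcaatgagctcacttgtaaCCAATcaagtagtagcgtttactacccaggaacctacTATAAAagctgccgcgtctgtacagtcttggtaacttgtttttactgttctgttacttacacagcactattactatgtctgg

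The window holds 3 CCAAT words, 1 TATAAA and 1 ATTTGCAT, and the gene it belongs to was near 0 in these poly(A)-enriched libraries. RefSeq windows, from 250 bases before to 50 after the start, were matched for 74 members. CCAAT was present in 85% of the 60 replication-dependent windows and 64.3% of the 14 variant windows, against 37.9% of 27025 windows of all genes. TATAAA was present in 58.3% of the replication-dependent and 7.14% of the variant windows, against 14.2% of all. ATTTGCAT was present in 20% of the replication-dependent and 7.14% of the variant windows, against 1.75% of all. Matches of letters are given as a description and not as sites in use.

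Near-identical copies limit how far reads can be given to 1 gene. Of all stretches of 100 bases, the read length, in the replication-dependent transcripts, a median of 35.7% per gene also occurred in a transcript of another gene, and in 26 of the 68 genes with a model over 50% did. The median for variant genes was 0, with at most 15.7%. *Hist2h3c1* shared 100% and *Hist2h3c2* 61.6% of their stretches, with each other and with *Gm20634*, and *Hist1h4h* shared 38.5% with other H4 genes. *Hist1h2bg* shared 44.9% and *Hist1h2ae* 30.7%, most often with genes of their own families. All these shares are of the GENCODE M21 models. The loci that the authors list are shorter for some genes, *Hist1h2bg* and *Hist1h2ae* among them, and shares over those loci were not computed. *Hist1h2bc* shared 25.4%, *Hist3h2a* 29.8%, all of it with the overlapping gene *Trim17* (at most 0.07 TPM), and *Hist2h2be* none. Levels and ratios of *Hist2h3c1*, *Hist2h3c2*, *Hist1h2bg*, *Hist1h4h* and *Hist1h2ae* are uncertain for this reason, as are those of many genes below 1 TPM. As the authors list them, 32 members also share their locus with another gene.

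The comparison of LDAH-Tg with its WT control asks how more LDAH in myeloid cells goes with gene expression in foam cells. It was made for genes with a mean of at least 1 TPM over both groups and neither at 0, on the log2 ratio after adding 0.5 TPM to each mean, with a factor of 1.5 as the size counted. Of the 86 members, 19 had such a ratio, 10 replication-dependent and 9 variant, and none was past a factor of 1.5 in either direction. Among all 11395 genes compared, 1.26% were higher and 0.685% lower by that factor. The replication-dependent genes had a median log2 ratio of 0.17, with values above 0 in 9 of 10, and the variant genes a median of 0.02, with values above 0 in 5 of 9. The median of all genes was 0.0022, with 5759 of 11395 above 0.

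The 9 replication-dependent ratios above 0 ran up to 0.44 in *Hist2h3c1*, 2.26 TPM in LDAH-Tg and 1.53 TPM in its WT control. *Hist1h2ae* followed at 0.32, with 1.66 TPM in LDAH-Tg and 1.23 TPM in its WT control, and *Hist1h4i* at 0.31. The smallest was 0.02 in *Hist1h2bg*, which was -0.0092 after quantile normalization. The single ratio below 0 was that of *Hist1h1c*, at -0.21, and the most abundant gene, *Hist1h2bc*, stood at 0.08. With no minimum level, 24 of the 42 replication-dependent genes above 0 in both groups were higher in LDAH-Tg, against 9608 of 18498 genes in all.

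Among variants, the H3.3 genes and the more abundant H2A.Z gene, *H2afz*, had ratios below 0 in LDAH-Tg. The other H2A.Z gene, *H2afv*, and most other H2A variants had ratios above 0. *H3f3a* stood at -0.28, *H2afz* at -0.25 and *H3f3b* at -0.16, whereas *H2afv* stood at 0.26, *H2afj* at 0.25, *H2afx* at 0.13 and *H2afy* at 0.10. *H1f0* stood at -0.0045 and *H2afy2* at 0.02, which became -0.02 after quantile normalization. All of these are changes of less than a factor of 1.5, and their spread between mice is not known.

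The comparison of LDAH-KO with its WT control asks the reverse question, for cells of knockout mice. Here 18 members had a ratio, 9 in each class. *Hist1h4h* was the only one past a factor of 1.5, and it was higher in LDAH-KO. Among all 11289 genes compared, 0.39% were higher and 1.83% lower by that factor, 44 genes against 207. That split was 57 against 153 with median-ratio scaling and 69 against 129 after quantile normalization. The replication-dependent median was 0.08, with 7 of 9 above 0, and the variant median 0.0072, with 5 of 9 above 0, while the median of all genes was -0.08, with 3776 of 11289 above 0. These medians turned with the minimum level. With none, 20 of the 41 replication-dependent genes above 0 in both groups were higher in LDAH-KO, with a median of -0.0011, and 5 of 10 variant genes, with a median of -0.0046, against 6030 of 17981 genes in all.

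*Hist1h4h* had 3.00 TPM in LDAH-KO and 1.00 TPM in its WT control, a log2 ratio of 1.22. The LDAH-Tg group had 2.73 TPM and its WT control 2.41 TPM, so that the LDAH-KO WT control was the group that stood apart. With the ratio resting on 1.00 TPM in 1 group mean, on a gene that shares 38.5% of its sequence stretches with other H4 genes, it was 1.49 with a pseudocount of 0.1 and 1.00 with a pseudocount of 1.

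The other H4 genes did not move as a set. *Hist1h4i* stood at 0.15 in LDAH-KO. *Hist1h4c* had 0.87 TPM in LDAH-KO and 0.43 TPM in its WT control, and *Hist1h4d* had 0.72 and 0.45 TPM in these groups, too low for a ratio. *Hist1h4n*, named here after its values were seen, had 0.25 TPM in LDAH-KO and 0.56 TPM in its WT control. Of the 12 H4 genes above 0 in both groups, 8 were higher and 4 lower in LDAH-KO, and the same counts held in LDAH-Tg against its own control. Summed H4 levels were 16.1 TPM in LDAH-KO and 12.8 TPM in its WT control, a gap of which *Hist1h4h* supplied the most.

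*Hist2h3c2* had the next ratio in LDAH-KO, 0.44, with 2.28 TPM in LDAH-KO and 1.55 TPM in its WT control. Its near copy *Hist2h3c1* stood at -0.02, with 2.89 and 2.95 TPM in these groups. The abundant genes were close to level: *Hist1h2bc* at 0.02, *Hist1h1c* at 0.07, *Hist2h2be* at 0.08 and *Hist3h2a* at 0.12. *Hist1h2bg* stood at -0.02. After median-ratio scaling or quantile normalization *Hist2h3c1* and *Hist1h2bg* were above 0, so that all 9 replication-dependent ratios were.

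All 9 variant ratios in LDAH-KO lay between -0.14, in *H2afy2*, and 0.15, in *H2afv*. *H2afx* stood at 0.13, *H2afz* at 0.12, *H2afj* at 0.09 and *H3f3a* at 0.0072, which was 0 after quantile normalization. *H2afy* stood at -0.08. *H1f0* at -0.06 and *H3f3b* at -0.02 were above 0 after either other scaling. The median size of a variant ratio, taken without its sign, was 0.09 in LDAH-KO, against 0.13 for all genes, and that of a replication-dependent ratio 0.08. In LDAH-Tg both were above the 0.13 of all genes there, at 0.16 for the variant and 0.20 for the replication-dependent genes.

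**Figure D5:**
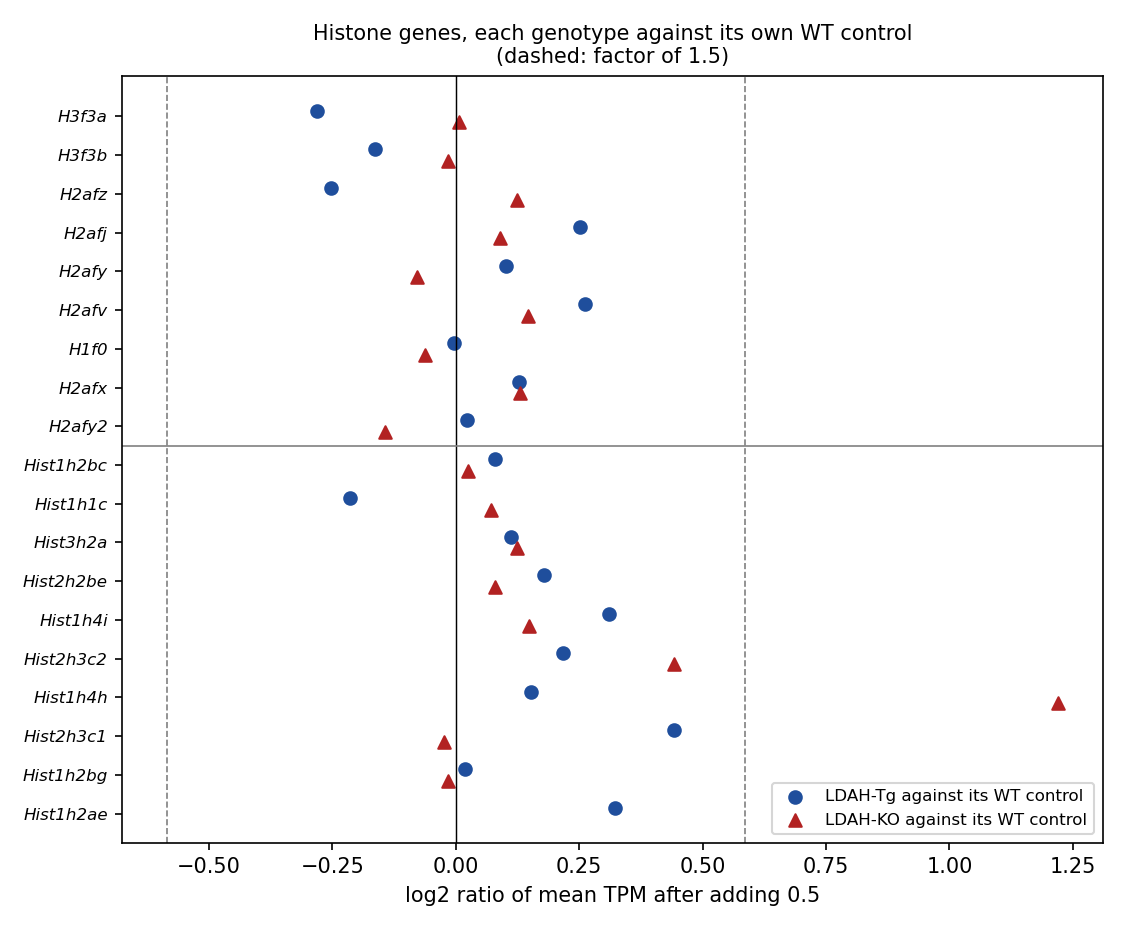
Log2 ratio of mean TPM (after adding 0.5) of each histone gene in LDAH-Tg and in LDAH-KO, each against its own WT control, with dashed lines at a factor of 1.5. *Hist1h4h* in LDAH-KO, at 1.22, is the only symbol outside the lines.

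More histone genes differed by the factor between the WT control groups than between either genotype and its control, and so did more genes in all. Taken as LDAH-KO WT control over LDAH-Tg WT control, 19 members had a ratio, of which 3 were higher and 5 lower by a factor of 1.5. Among all 11404 genes compared, 26.5% were higher and 12.1% lower, so many other genes differed as well. The higher members were *H2afz* at 1.15, *Hist2h3c1* at 0.76 and *H3f3a* at 0.76. The lower members were *H2afj* at -1.04, *Hist1h4h* at -0.95, *H2afv* at -0.91, *Hist2h3c2* at -0.89 and *H2afy2* at -0.77. The median size without sign was 0.76 for the variant genes, 0.31 for the replication-dependent genes and 0.45 for all genes. Not every gene differed most between the controls. *Hist1h2bc*, *Hist1h4i* and *Hist1h2ae*, at 0.0085, 0.14 and -0.09, had larger ratios in LDAH-Tg against its own control. So, by a small margin and without regard to sign, did *H3f3b* (-0.163, against 0.159 between the controls) and *Hist1h2bg* (0.019, against -0.018). *Hist1h4h* had its largest ratio in LDAH-KO, at 1.22. Mouse line, background and the experiment in which the cells were handled and sequenced cannot be told apart here.

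Genes that make, carry and modify histones were compared in the same way, from lists whose members were named with earlier results of these data known. Beside them, the median over all genes stood at 0.0022 for LDAH-Tg. For LDAH-KO it stood at -0.08, and there 1.83% were lower by the factor and 7513 of 11289 were below 0. Of the genes of histone mRNA transcription and 3′ processing, none of 28 was past a factor of 1.5 in LDAH-Tg and none of 29 in LDAH-KO, with medians of -0.0064 and -0.13. *Slbp*, whose protein binds the stem loop, had 30.8 TPM in LDAH-Tg and 36.6 TPM in its WT control, and 39.6 TPM in LDAH-KO and 40.6 TPM in its WT control. *Casp8ap2*, needed for replication-dependent transcription, stood at -0.53 in LDAH-KO, with 6.67 TPM in LDAH-KO and 9.88 TPM in its WT control.

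Of 37 genes for histone chaperones and variant exchange, none was past the factor in LDAH-Tg, and 2 were lower in LDAH-KO. These were *Ep400*, an ATPase of H2A.Z exchange, at -0.60, and *Ubn2*, of the HIRA complex that deposits H3.3, at -0.59. *Atrx*, a remodeller that deposits H3.3 with DAXX, stood at -0.58, just inside the factor. Among 32 histone-modifying enzymes none was past the factor in LDAH-Tg, where 31 had ratios above 0 with a median of 0.12. In LDAH-KO 2 were lower, *Kmt2a*, an H3 methyltransferase, at -0.63 and *Hdac4*, a deacetylase, at -0.62, and the median was -0.17, with 27 of 32 below 0.

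Among 37 genes of DNA replication and S phase, the highest level in any group ran to 488 TPM with a median of 9.31 TPM, and among 26 mitosis genes to 41.5 TPM with a median of 3.85 TPM. The highest was *Pcna*, the sliding clamp of DNA polymerase, which also serves in DNA repair, with 249 TPM in LDAH-Tg and 306 TPM in its WT control, and 488 TPM in LDAH-KO and 462 TPM in its WT control. It was the only gene of either list above 100 TPM. Of the genes of DNA replication and S phase, 1 of 33 was higher in LDAH-Tg, the polymerase gene *Pold1* at 0.61, and none of 34 was past the factor in LDAH-KO, with medians of -0.01 and -0.04. Of the mitosis genes, none of 23 in LDAH-Tg and none of 25 in LDAH-KO was past it, with medians of -0.02 and -0.17. *Mki67*, a marker of cycling cells, had 2.74 TPM in LDAH-Tg and 2.67 TPM in its WT control, and 2.23 TPM in LDAH-KO and 3.15 TPM in its WT control. *Top2a*, which untangles chromosomes before division, had 7.32 TPM in LDAH-Tg and 7.47 TPM in its WT control, and 5.38 TPM in LDAH-KO and 6.70 TPM in its WT control. In bulk RNA, fewer cycling cells and less of these RNAs per cell cannot be told apart.

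RNAs without a poly(A) tail, which such libraries should mostly lose, were lower in both genotypes than in their controls where a ratio was given. Of the listed genes, 4 of 6 with a ratio were lower by the factor in LDAH-Tg, with a median of -0.71. Among all genes compared there, 0.685% were. In LDAH-KO it was 4 of 4, with a median of -1.11, against 1.83% of all genes. *Rny1*, without a ratio, was listed at 152 TPM in the LDAH-KO WT control and at 0 in the other groups. *Rny3* had 59.1 TPM in LDAH-Tg and 65.3 TPM in its WT control, and was listed at 0 in LDAH-KO and its WT control. *Rn7sk*, the 7SK RNA, had 10.1 TPM in LDAH-Tg and 21.4 TPM in its WT control, and 11.2 TPM in LDAH-KO and 28.7 TPM in its WT control. *Rmrp* and *Rpph1* were lower in both genotypes too. The fourth in LDAH-KO was *Lars2*, a protein-coding gene on that list, so that the LDAH-KO count and median rest partly on it. The fourth in LDAH-Tg was *Scarna13*. No replication-dependent histone gene with a ratio was lower by the factor in either genotype, and what the recovery of RNAs without a tail contributed to the histone values was not tested.

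Summed markers of other cells were low beside the summed macrophage markers, most of which came from *Cd68*. Without *Lyz2*, the 8 macrophage markers summed to 5403 TPM in LDAH-Tg and 5532 TPM in its WT control. They summed to 3699.8 TPM in LDAH-KO and 4107 TPM in its WT control. *Cd68* alone had 4895 TPM in LDAH-Tg, 4959 TPM in its WT control, 3023 TPM in LDAH-KO and 3321 TPM in its WT control. No other of these macrophage markers had more than 273.5 TPM in any group. The 6 fibroblast markers summed to 31.9 TPM in LDAH-Tg and 30.05 TPM in its WT control, and 18.7 TPM in LDAH-KO and 38.5 TPM in its WT control, and all 5 with a ratio were lower by the factor in LDAH-KO. The 6 mesothelial markers summed to 4.16 to 8.08 TPM, with both ratios lower by the factor in LDAH-KO. Neutrophil markers summed to 78.4 to 127 TPM, most of it from *S100a8* at 63.8 to 107 TPM and the next most from *Csf3r* at 13.7 to 24.4 TPM. *S100a9* had at most 0.74 TPM in any group, and *Ly6g* was listed at 0 in all groups. B cell markers summed to 1.00 to 1.47 TPM and T cell markers to 0.32 to 0.62 TPM. The mast cell or eosinophil markers summed to 3.23 to 4.59 TPM with *Mcpt4* and *Epx* listed at 0 throughout. Their part in the histone ratios was not tested.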

How the data were processed

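Poly(A)-enriched stranded libraries of 16 PM samples were sequenced by the authors as paired reads of 100 bases, trimmed with Trimmomatic and aligned to mm10 (GRCm38) with STAR 2.4.2a. The submitters' processing notes also name bcl2fastq 2.17.1.14, HTSeq, DESeq2 and Cuffdiff 2.2.1. The program that made the TPM values and the annotation release are not given in the sources used here. The deposited table holds the authors' mean TPM of each of the 4 groups for 48432 genes, and 1 line with no gene, the total of 1000000, was left out. Depth and replicate spread are unknown, and no test, interval or p-value could be had. The samples were grouped by the labels. Ratios used a pseudocount of 0.5, a minimum mean of 1 TPM and a factor of 1.5 (0.585 on the log2 scale). Named in the text are members with a mean of at least 1 TPM in either comparison, and up to 4 genes of each list by size with *Slbp*, *Mki67*, *Top2a*, *Rn7sk* and *Ldah*. *Pcna*, *Hist1h4c*, *Hist1h4d*, *Hist1h4n*, the members of head-to-head pairs, the germ-cell variants and the copies and overlapping genes were named after their values were seen. So were *Cd68*, *S100a8*, *S100a9*, *Csf3r*, *Rny1*, *Rny3*, *Hist1h2aj* and *Hist1h2al*. The members and lists were chosen with earlier results of these data known, and the shared 100-base stretches were added after the values were seen. Transcript models came from GENCODE M21, which holds 84 of the 86 member IDs, and promoters from RefSeq (GRCm38.p6). The loci that the authors list are shorter than these models for some members. The stem loop was searched as the 16-base histone consensus in the longest protein-coding model of a gene. A diverged stem loop would be missed, and so would any beyond the end of the model. Pseudocounts of 0.1 and 1, no minimum, a minimum of 5 TPM, a factor of 2, median-ratio scaling, quantile normalization, protein-coding genes alone and members without -ps symbols were tried as alternatives. 1 further marker list is not reported here. Of the steps, the ratios alone were tested on simulated data. All steps ran in Python 3.11.15, with pandas 2.3.3, numpy 2.4.6 and, for the plots, matplotlib 3.10.9.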

Additional observations from a re-analysis of the deposited data

How the results depend on the processing

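No paired analysis was possible because the columns hold group means only, and for the same reason the values without each replicate could not be computed. Without a minimum level, 2 histone genes were past a factor of 1.5 in LDAH-Tg (*Hist1h3d* and *Hist2h2aa2*, both higher and below 1 TPM), and 2 in LDAH-KO (*Hist1h4h* higher and *Hist1h1d* lower), and the replication-dependent median in LDAH-Tg was 0.037, over 42 genes. Over all genes that setting gave 255 higher and 133 lower of 18498 in LDAH-Tg, and 98 higher and 362 lower of 17981 in LDAH-KO, where both class medians turned slightly below 0 (-0.0011 and -0.0046). With a minimum of 5 TPM, 0 were past it in LDAH-KO, since *Hist1h4h* was no longer compared. After quantile normalization the replication-dependent median in LDAH-KO was 0.18. The other counts and medians of both classes kept to within 1.5 times or 0.1 on the log2 scale, a tolerance set after the values were seen. Of the 37 single ratios, 6 moved by more than that under quantile normalization and 1 under each other pseudocount (*Hist1h4h* in LDAH-KO), and signs changed for 4 under median-ratio scaling and 7 under quantile normalization, all small ratios. Means of 4 samples carry no spread, so no difference given here can be set against the variation between mice.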
